A study of Homo sapiens with 2 samples.

Results

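Collagen chains, laminin chains and integrin subunits were examined in PANC-1 cells, an established human line from a carcinoma of the pancreatic duct. Members were the rows whose gene symbol names a collagen alpha chain, a laminin alpha, beta or gamma chain, or an integrin alpha or beta subunit. They numbered 63 of 20981 listed genes, with 30 collagens, 11 laminins and 22 integrins. The symbols COL1A2, COL6A3 and ITGB3 would also fit this description but were not among the rows analysed here. In the group named shCtrl the cells received a control hairpin RNA, and in shWBSCR22 one that targets WBSCR22, the older symbol of BUD23, a methyltransferase of small-subunit ribosomal RNA. Both were grown in the same serum-containing medium, and each group held 1 library, so every difference below is between 2 libraries and has no replicate check. None of the sources used here tells whether either line was a clone or a pool of transduced cells, or for how long the hairpin was present.

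Collagens are proteins of 3 wound chains that form fibrils, sheets or anchoring threads outside the cell. Laminins are cross-shaped trimers of an alpha, a beta and a gamma chain and are the main organisers of basement membranes, the sheets on which epithelia rest. Integrins are the receptors that hold a cell to both. Each joins an alpha subunit, which largely sets the ligand, to a beta subunit, whose short tail is tied to the actin or keratin skeleton through adaptor proteins. Carcinomas of the pancreatic duct are known for a dense collagen-rich stroma, made mainly by fibroblasts and in part by the carcinoma cells.

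The libraries held 16121638 reads in shCtrl and 15248099 in shWBSCR22. BUD23, the targeted gene, fell short of 2-fold: it went from 3487 to 1892 counts (log2 ratio -0.72, -1.01 to -0.43), in the direction that the label names. The comparison took genes that averaged 1 CPM or more (counts scaled to a library of 1000000), which kept 12980 genes and 41 members. A gene was called higher or lower when its ratio reached 2-fold and its 95% interval excluded 0. Low counts were heaped at 8 reads in shCtrl and 15 in shWBSCR22, for a reason that is not known. As a choice made here, this interval treats reads as arriving in groups of those sizes, which makes it wider than one for single reads. It covers the error of drawing reads only and says nothing about cultures. The keratins KRT8, KRT18 and KRT7 of simple epithelium were abundant, with 77459, 51767 and 16550 counts in shCtrl and 64689, 40237 and 12142 in shWBSCR22. Their log2 ratios were -0.09 (-0.15 to -0.04), -0.20 (-0.26 to -0.13) and -0.28 (-0.40 to -0.16), and the 6 epithelial markers summed to 9043 and 7678 CPM. EPCAM had 15 and 0 counts and CDH1 2 and 0. KRT19 was listed at 0 in both libraries. Whether a 0 in this table reflects missing RNA or reads lost in counting could not be settled. Of 7 fibroblast and stellate cell markers in the table, ACTA2, FAP and RGS5 were at 0 in both libraries. Their summed level was 7.44 CPM in shCtrl and 13.2 in shWBSCR22, with DCN going from 10 to 44 counts, LUM from 32 to 56, PDGFRB from 64 to 102 and THY1 from 14 to 0. The 2 endothelial genes summed to 0.868 and 3.02 CPM, with CDH5 at 0 in both. The 4 leukocyte genes in the table summed to 57.4 and 3.74 CPM, led by MPO with 692 and 21 counts and LYZ with 191 and 0, and the 3 mesothelial genes to 292 and 567 CPM, led by MSLN, which carcinomas of the pancreas also express, with 4606 and 8521 counts. The part of other cells in the results below was not tested. In such bulk samples, fewer cells of a type and less RNA per cell cannot be told apart.

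In shWBSCR22, COL1A1, COL6A2, LAMB2 and ITGA2B were higher, between 2.36-fold and 3.66-fold, and 0 members were lower. These 4 were 9.76% of the 41 compared members. Over all compared genes 4.19% were called higher and 2.98% lower, or 7.17% in either direction. The members' share therefore lay near the background. Scaling by total counts in place of TMM (trimmed mean of M values) turned the balance over all genes from 544 higher and 387 lower to 444 and 502, while the same 4 members were called. With the interval for single reads, 6 members were higher and 1 lower, where 12.2% of all genes were higher and 11.9% lower (24.1% in either direction). By size alone the members' counts were the same, beside 12.3% and 11.9% (24.2% in either direction). Without a size rule, 10 of the 41 compared members had an interval above 0 and 0 of the 41 one below 0. Of all 12980 genes, 1398 (10.8%) lay above 0 and 1065 (8.2%) below 0 (19.0% in either direction). Intervals narrow with level. At a mean of at least 30 CPM, 7 of 17 members lay above 0 and 0 below 0, beside 23.2% and 19.3% of all genes. Under total-count scaling 9 of the 41 members lay above 0, COL5A2 dropping out, against 8.91% of all genes above and 10.9% below.

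**Figure D1:**
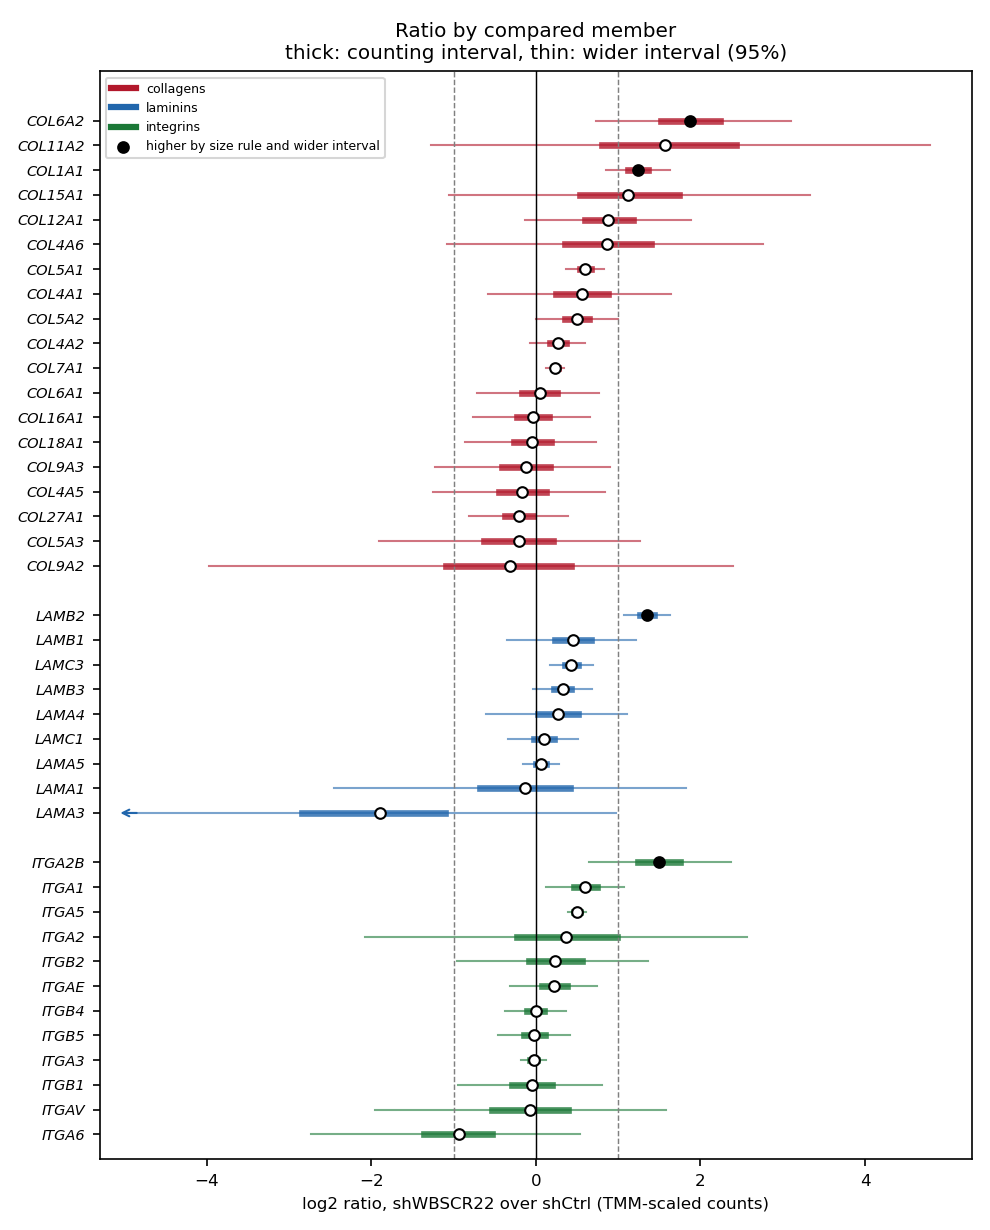
Log2 ratio of shWBSCR22 over shCtrl for 40 of the 41 compared members, by class. Points are ratios of TMM-scaled counts, thick lines the 95% interval for single reads, thin lines the wider interval for grouped reads, and dashed lines mark 2-fold; the 4 filled points are COL6A2, COL1A1, LAMB2 and ITGA2B, and the line of LAMA3 runs past the left edge.

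The fibril-forming collagens give tissue its tensile strength. COL1A1, the major chain of collagen I (ENSG00000108821, GRCh38 chr17:50183289-50201632, minus strand), went from 839 counts to 1768. Per length it stood at 5.28 FPKM in shCtrl (fragments per kilobase of exon in a library of 1000000) and at 11.8 in shWBSCR22. The log2 ratio was 1.24, with an interval of 0.85 to 1.63. Of 2008 genes between 0.5 and 2 times its mean CPM, 2.09% had a higher ratio. Its range over all alternative settings was 1.02 to 1.25. ITGA3, the nearest member on the chromosome at 92807 bases, had a ratio of -0.03, so this neighbour did not stand higher with it.

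Collagen V starts and limits the width of collagen I fibrils. COL5A1 went from 3091 to 4174 counts and from 17.1 to 24.4 FPKM (log2 ratio 0.60, 0.37 to 0.83). COL5A2 had 707 and 893 counts, or 6.11 and 8.15 FPKM, with a ratio of 0.50 and an interval from 0.0037 to 0.99 that came close to 0. Both chains thus lay above 0 and short of 2-fold. The level of COL5A1 over COL5A2 was 2.80 in shCtrl and 2.99 in shWBSCR22. COL5A3, the third chain of this type, had 113 and 87 counts (log2 ratio -0.21, -1.90 to 1.27). COL27A1, a fibrillar collagen of cartilage, had 668 and 518 counts, or 2.95 and 2.42 FPKM, with a log2 ratio of -0.20 and an interval of -0.82 to 0.39 that held 0. COL11A2, also of cartilage, had only 19 and 51 counts (1.57, -1.28 to 4.79). COL3A1, the partner of collagen I in soft tissue and a leading product of fibroblasts, was at 0 in both libraries. The summed FPKM of the fibrillar chains was 32.6 and 48.1, the larger part of it COL5A1.

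Collagen VI forms beaded filaments around cells and needs its alpha 1 and alpha 2 chains together. COL6A2 (ENSG00000142173, chr21:46098097-46132849, plus strand) had 87 and 285 counts, or 0.999 and 3.46 FPKM. Its log2 ratio of 1.87 (0.73 to 3.10) was the highest among the compared members. COL6A1, which lies 93046 bases away on the same strand, had 397 and 365 counts, or 4.59 and 4.46 FPKM, and a ratio of 0.04 (-0.72 to 0.77) that turned to -0.04 under total-count scaling. The level of COL6A1 over COL6A2 was 4.60 in shCtrl and 1.29 in shWBSCR22. The difference in this ratio lay on the side of COL6A2, with COL6A1 near even.

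Collagen VII builds the anchoring fibrils that fasten an epithelium to its stroma. COL7A1 (ENSG00000114270, chr3:48564073-48595267, minus strand) was the most abundant collagen, with 16813 and 17620 counts, or 93.9 and 104 FPKM. It made up 59.8% of the summed collagen FPKM in shCtrl and 55.6% in shWBSCR22. Its log2 ratio was 0.23 (0.13 to 0.34), small and above 0.

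Collagen IV is the sheet-forming collagen of basement membranes, and its alpha 1 and alpha 2 chains assemble as a trimer with more alpha 1 than alpha 2. Their genes lie head to head, with RefSeq start sites 126 bases apart. COL4A2 had 1634 and 1754 counts, or 11.6 and 13.2 FPKM, with a log2 ratio of 0.27 (-0.07 to 0.60). COL4A1 had 151 and 198 counts, or 1.14 and 1.58 FPKM, with a ratio of 0.56 (-0.58 to 1.65). The level of COL4A2 was 10.2 times that of COL4A1 in shCtrl and 8.33 times in shWBSCR22. The deposited gene spans overlap by 1338 bases on opposite strands, and none of the sources used here tells whether strand was used in counting. COL4A5 and COL4A6, a second head-to-head pair, had 235 and 187 counts and 51 and 83 counts, with ratios of -0.16 and 0.86 and intervals that held 0. COL4A3 had 0 and 15 counts and COL4A4 3 and 0.

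Other collagens were low and not called. COL18A1, a basement membrane proteoglycan whose end fragment is endostatin, had 365 and 316 counts (-0.04, -0.86 to 0.73). COL16A1, which associates with fibrils, had 448 and 390 (-0.03, -0.76 to 0.66). COL12A1, which coats collagen I fibrils, had 160 and 263 (0.88, -0.13 to 1.88), and COL15A1, a proteoglycan under basement membranes, 37 and 72 (1.12, -1.06 to 3.33). COL9A2 and COL9A3, cartilage chains of collagen IX, had ratios of -0.32 and -0.12. COL8A1, COL17A1 and COL26A1 were under the filter with 5 and 18, 6 and 7, and 13 and 3 counts, COL17A1 being the hemidesmosome collagen of basal keratinocytes. COL2A1 and COL20A1 had 0 counts in shCtrl and 10 and 5 in shWBSCR22, COL13A1 had 12 and 0, and COL22A1 and COL25A1 had none.

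**Figure D2:**
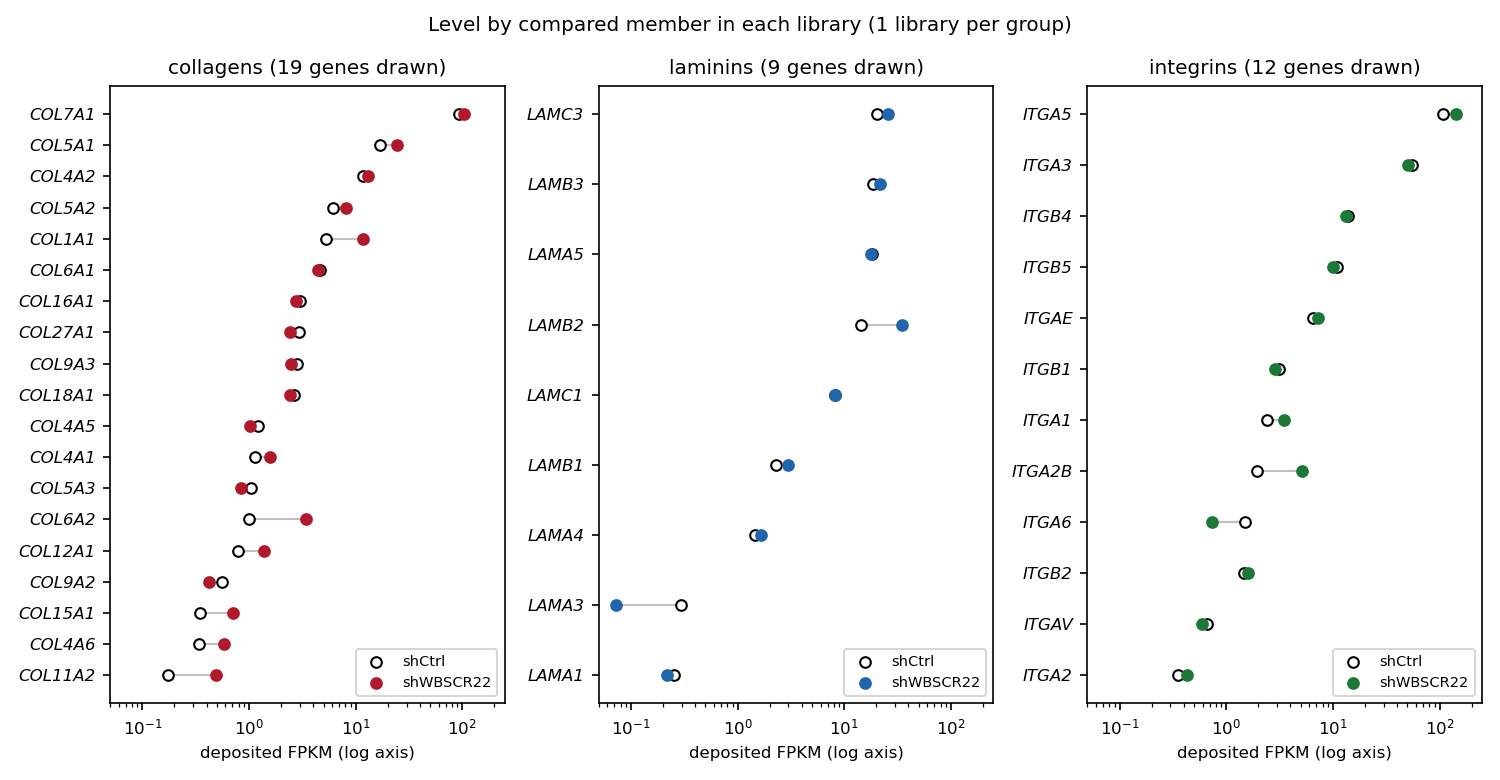
Deposited FPKM (log axis) of 40 of the 41 compared members in shCtrl (open circles) and shWBSCR22 (filled circles), in order of the shCtrl level within each class. COL7A1 leads the collagens and ITGA5 and ITGA3 the integrins, whereas LAMC3, LAMB3 and LAMA5 lie close together in shCtrl and LAMB2 passes them in shWBSCR22.

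Among laminins the change was in a beta chain. LAMB2, the beta 2 chain of kidney, muscle and synaptic basement membranes (ENSG00000172037, chr3:49121114-49133118, minus strand), went from 1603 to 3639 counts and from 14.4 to 34.6 FPKM. The log2 ratio was 1.35 (1.07 to 1.63), and it ran from 1.21 to 1.36 over the alternative settings. A higher ratio was seen for 0.959% of the 1356 genes near its level. LAMB1, the beta 1 chain that takes the same place in the trimer, had 302 and 368 counts, or 2.29 and 2.95 FPKM, and a ratio of 0.45 (-0.34 to 1.22). The level of LAMB2 over LAMB1 was thus 6.29 in shCtrl and 11.7 in shWBSCR22.

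LAMA5 and LAMC1, usual partners of LAMB2, were near even. LAMA5, the alpha chain of the most widespread laminins of adult tissue, had 4221 and 3926 counts, or 18.3 and 17.9 FPKM, with a ratio of 0.06 (-0.16 to 0.28) that became -0.02 under total-count scaling. LAMC1, the common gamma chain, had 1117 and 1064 counts, or 8.22 and 8.27 FPKM, with 0.10 (-0.34 to 0.52). LAMA5 over LAMB2 was 1.26 in shCtrl and 0.518 in shWBSCR22, so the beta chain went from the lower to the higher of this pair. LAMC3, a gamma chain known from vessels and nerve, had 2502 and 3011 counts, or 20.4 and 25.9 FPKM, and was the most abundant laminin of shCtrl (0.43, 0.17 to 0.69). LAMA4 had 275 and 295 counts (0.27, -0.61 to 1.11), LAMA1, the embryonic alpha chain, 65 and 53 (-0.13, -2.45 to 1.83), and LAMB4 none.

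LAMA3 and LAMB3 are known as chains of 1 laminin that anchors epithelia together with collagen VII. They were far apart in level. LAMB3 had 1404 and 1569 counts, or 18.5 and 21.9 FPKM (0.33, -0.04 to 0.68). LAMA3 had 64 and 15 counts, or 0.293 and 0.0725 FPKM. Its ratio of -1.89 was past 2-fold, but the interval ran from -7.40 to 0.97, and it passed the filter through shCtrl alone. LAMB3 thus stood at 63.3 times the FPKM of LAMA3 in shCtrl.

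Integrin alpha subunits were led by the receptors for fibronectin and laminin. ITGA5, which with ITGB1 forms the classical fibronectin receptor (ENSG00000161638, chr12:54395261-54419460, minus strand), had 13129 and 16521 counts, or 107 and 142 FPKM, with a log2 ratio of 0.50 (0.39 to 0.61). ITGA3, a laminin receptor subunit, had 8712 and 7620 counts, or 55.0 and 50.8 FPKM, with -0.03 (-0.18 to 0.13). ITGA1, a collagen receptor subunit, had 725 and 979 counts, or 2.41 and 3.44 FPKM, with 0.60 (0.12 to 1.07). The gene PELO lies within ITGA1 on the same strand with 270 and 209 counts. ITGAE, the partner of beta 7 that binds E-cadherin, had 704 and 732 counts, or 6.54 and 7.18 FPKM (0.22, -0.31 to 0.74). ITGA5 thus stood at 1.95 times the FPKM of ITGA3 in shCtrl and at 2.80 times in shWBSCR22, and did not reach 2-fold itself.

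ITGA2B was the called integrin. It encodes the alpha IIb subunit of the platelet fibrinogen receptor, textbook marker of megakaryocytes (ENSG00000005961, chr17:44372180-44389505, minus strand). It went from 174 to 437 counts and from 1.94 to 5.14 FPKM (log2 ratio 1.49, 0.64 to 2.37). A higher ratio was seen for 1.83% of the 3662 genes near its level. The lowest integrin ratio was that of ITGA6, the laminin receptor subunit of hemidesmosomes, with 157 and 73 counts, or 1.49 and 0.730 FPKM (-0.93, -2.74 to 0.54). ITGA2, a collagen receptor subunit, had 45 and 52 counts (0.37, -2.08 to 2.57), and ITGAV, the alpha subunit of vitronectin receptors, 87 and 74 (-0.07, -1.96 to 1.59).

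The beta subunits were close to even. ITGB4, the hemidesmosome subunit tied to keratin, had 1529 and 1360 counts, or 14.0 and 13.1 FPKM, with a log2 ratio of -0.003 (-0.38 to 0.36), which turned to 0.0055 with DESeq2 size factors and to -0.09 with total-count scaling. ITGB5, a vitronectin receptor subunit, had 1133 and 998 counts, or 10.9 and 10.1 FPKM, with -0.02 (-0.46 to 0.41). ITGB1, the partner of most alpha subunits, had 306 and 265 counts, or 3.15 and 2.88 FPKM (-0.04, -0.94 to 0.81). ITGB2, the leukocyte beta subunit, had 160 and 168 counts (0.24, -0.96 to 1.36). The 4 compared beta subunits spanned -0.04 to 0.24, and the 8 alpha subunits -0.93 to 1.49.

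ITGB1 was low against the subunits it serves. ITGA5, which is known to pair only with ITGB1, stood at 34.0 times the FPKM of ITGB1 in shCtrl and 49.5 times in shWBSCR22. The 12 listed alpha subunits that can pair with ITGB1 summed to 167 and 199 FPKM, or 53.1 and 69.0 times ITGB1. Likewise ITGB4 stood at 9.41 and 18.0 times its sole partner ITGA6, and ITGB5 at 16.6 and 17.2 times its sole partner ITGAV. The low partner had the lower GC content in each pair. The longest coding transcripts of ITGB1, ITGA6 and ITGAV had 40.0%, 42.9% and 38.3% GC, against 58.7%, 63.7% and 54.3% for ITGA5, ITGB4 and ITGB5. In shCtrl, ITGB1 was itself the most abundant of the members under 45% GC. Across genes within the shCtrl library, GC content and FPKM had a Spearman correlation of 0.36 over 12967 genes and of 0.29 over the 41 members. Genes are not independent replicates, and the part of GC content in these levels was not tested. The correlation of GC content with the log2 ratio was 0.06 over all genes and -0.02 over the members, and within classes -0.33 over 19 collagens, 0.08 over 10 laminins and 0.29 over 12 integrins. Of all genes under 45% GC, 2.85% were called higher, against 3.91% from 45% to 55%, 5.07% from 55% to 65% and 9.97% above 65%. Of the called members, COL1A1, LAMB2 and ITGA2B lay between 55% and 65% GC and COL6A2 above 65%, and the part of GC content in their ratios was not tested.

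**Figure D3:**
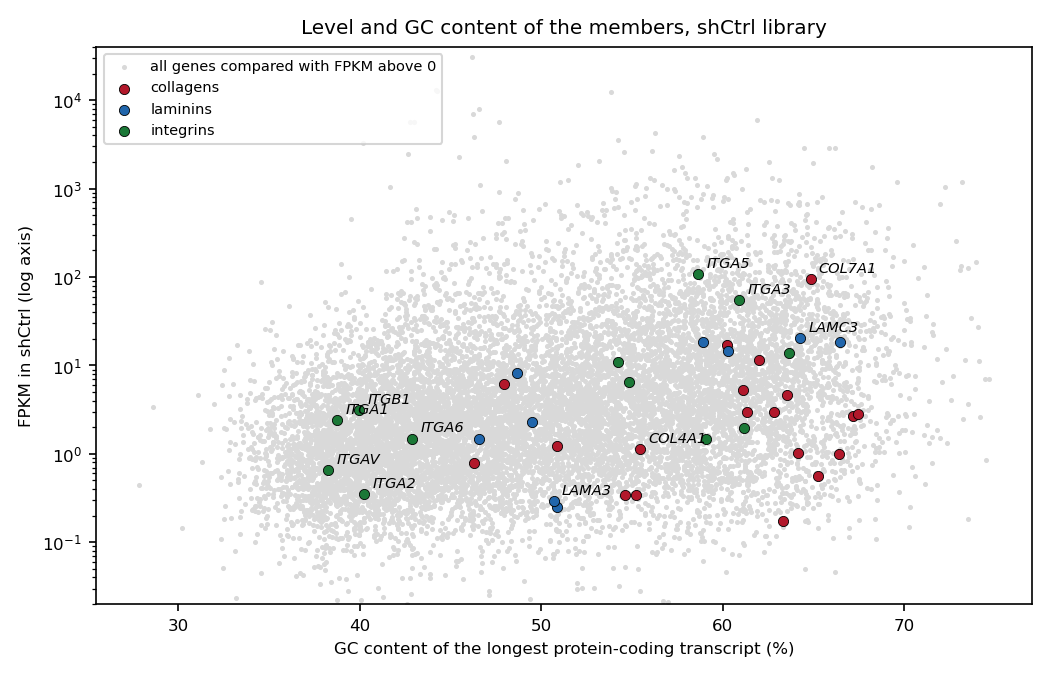
FPKM in shCtrl (log axis) against GC content of the longest protein-coding transcript, for members coloured by class over all compared genes in grey. ITGB1, ITGAV, ITGA1, ITGA2 and ITGA6 lie at the low-GC side with 3.15 FPKM or less, whereas ITGA5, ITGA3 and COL7A1 lie above 58% GC.

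Another 6 members had counts in shWBSCR22 and 0 in shCtrl, and 6 the reverse. The former were COL2A1, COL4A3, COL20A1, ITGA4, ITGA7 and ITGB8, and the latter COL4A4, COL13A1, ITGA9, ITGA10, ITGAL and ITGAM. The highest count among them was 20, for the leukocyte subunit ITGAM in shCtrl, at least 5.94-fold higher there against a floor of 3 counts per library. ITGA4, a receptor subunit for fibronectin and VCAM1, had 18 in shWBSCR22, at least 6.73-fold higher. These bounds take each read as independent. With grouped reads the interval held 0 for all 12. ITGA7, ITGA9, ITGA10, ITGAL and ITGB8 had between 6 and 12 counts in a single library, and ITGA8, ITGA11 and ITGAX had none in either. Together with COL3A1, COL22A1, COL25A1 and LAMB4, 7 members were at 0 in both libraries, which allows up to 3 counts in each as far as the drawing of reads goes and sets no limit on reads lost in counting, and 15 with counts were under the filter.

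Several members share ground with an expressed gene on the opposite strand. Reads from bases that are exon in both genes cannot be told apart without strand. The overlaps given here are of whole gene spans, and the exon bases shared were not counted. LAMA5 overlaps ADRM1, with 7868 and 3996 counts, over 908 bases, and ITGB4 overlaps GALK1, with 4653 and 6026 counts, over 6225 bases. COL18A1 overlaps SLC19A1, with 1240 and 821 counts, and LAMB1 overlaps DLD, with 358 and 193. None of the 4 called members overlaps a listed gene.

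Set against their receptors, the matrix chains had the higher median ratio. The 29 compared matrix chains had a median log2 ratio of 0.27, with 3 higher (10.3%) and 0 lower. The 12 compared integrins had 0.11, with 1 higher (8.33%) and 0 lower. Both shares lay near the 7.17% of all genes called in either direction. Within the integrins, the 8 alpha subunits had a median of 0.30 and the 4 beta subunits -0.01. Collagens alone had 0.27 and laminins 0.22, beside -0.02 over all compared genes. With every member of at least 1 count the integrin median turned to -0.01. Among genes of at least 30 CPM, where intervals are narrower, the medians were 0.33 over 11 matrix chains and 0.11 over 6 integrins. There the 4 alpha subunits had 0.36 and the 2 beta subunits -0.01. The difference between matrix chains and receptors was not tested, since genes of 1 pair of libraries are not replicates.

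The summed levels rested on few genes. Collagen FPKM summed to 157 in shCtrl and 187 in shWBSCR22, a ratio of 1.19, and COL7A1, COL5A1 and COL1A1 made up 33.7%, 24.5% and 21.8% of the difference. Laminins summed to 85.0 and 114, a ratio of 1.35, of which LAMB2 made up 68.6%. Without LAMB2 the ratio was 1.13. Integrins summed to 205 and 239, a ratio of 1.16, and without ITGA5 to 98.2 and 96.3, a ratio of 0.981. The FPKM of all genes had a ratio of 1.02. The integrin sum therefore followed a single subunit.

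**Figure D4:**
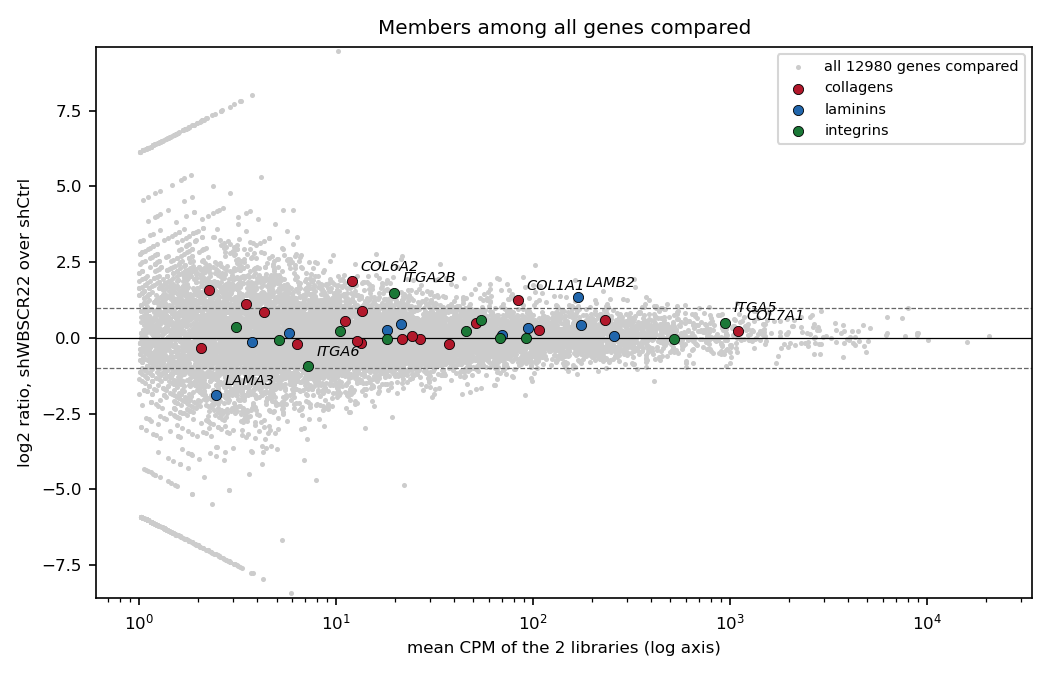
Log2 ratio of shWBSCR22 over shCtrl against the mean CPM of the libraries (log axis), for all 12980 compared genes in grey and the members in colour, with dashed lines at 2-fold. LAMB2 and COL1A1 lie near the upper edge of genes at their level, and the members at a higher CPM than LAMB2 lie within 2-fold.

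The upstream sequence of the called genes is shown because these are the members that stood apart, and because COL6A2 did so without COL6A1. Of the 4 called members 3 had a promoter in the RefSeq table (GRCh38.p14). The stretch is printed 5' to 3' on the gene's strand. For ITGA2B it ends at the RefSeq start site, and for COL6A2 and LAMB2 it ends earlier, where a GENCODE exon of the gene begins. The stretches lie at chr21:46097862-46098096 for COL6A2, chr3:49133119-49133300 for LAMB2 and chr17:44389650-44389899 for ITGA2B. Capitals mark GGGCGG (the GC box bound by SP1-type factors), CCAAT and TATAAA on either strand.
COL6A2: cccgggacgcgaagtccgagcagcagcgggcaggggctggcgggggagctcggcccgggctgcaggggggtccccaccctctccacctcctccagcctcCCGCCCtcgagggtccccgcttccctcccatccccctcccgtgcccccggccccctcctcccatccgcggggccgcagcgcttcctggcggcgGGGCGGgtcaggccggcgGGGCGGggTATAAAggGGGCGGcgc
LAMB2: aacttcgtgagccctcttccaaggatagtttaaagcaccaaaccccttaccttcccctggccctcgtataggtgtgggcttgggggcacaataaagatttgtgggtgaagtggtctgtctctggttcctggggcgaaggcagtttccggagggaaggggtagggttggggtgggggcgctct
ITGA2B: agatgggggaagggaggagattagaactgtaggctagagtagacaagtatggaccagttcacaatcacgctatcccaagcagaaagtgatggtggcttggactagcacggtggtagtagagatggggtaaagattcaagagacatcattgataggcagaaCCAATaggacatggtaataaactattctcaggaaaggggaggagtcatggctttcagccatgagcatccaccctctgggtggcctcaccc
The COL6A2 stretch of 235 bases was 79.6% GC and held 4 GC boxes and 1 TATAAA. Those letters were found in 42.0% and 10.1% of 35116 RefSeq promoters over the same length, taken directly before the start site. The ITGA2B stretch of 250 bases was 48.8% GC and held 1 CCAAT, found in 32.0% of promoters. The LAMB2 stretch of 182 bases was 56.6% GC and held none of the 3. The 3 called genes shown thus shared none of these letters in these windows. The LAMB2 stretch stops short of its start site at 49133050, so the bases next to that start were not searched. COL1A1 had no window, so whether the called genes share such letters cannot be told from these stretches.

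Genes that act on collagen after its synthesis, or between integrins and the cytoskeleton, were examined as lists. In collagen processing 1 of 25 compared genes was higher and 0 were lower. This share lay near that of all genes, of which 4.19% were higher and 2.98% lower. The median of the list was 0.35. The interval lay above 0 for 7 of its 25 genes and below 0 for 0 of them, beside 10.8% and 8.2% of all genes. Of these 25 genes, 12 averaged at least 30 CPM, where 23.2% of all genes lay above 0 and 19.3% below. The called gene was PLOD2, a lysyl hydroxylase that sets stable cross-links, with 161 and 317 counts (1.14, 0.19 to 2.10). PCOLCE, which speeds removal of the procollagen end piece, had 10881 and 16370 counts, or 191 and 303 FPKM (0.76, 0.64 to 0.87). BMP1, the protease that PCOLCE enhances, had 2698 and 3585 (0.58, 0.33 to 0.82), and P3H3, of the prolyl 3-hydroxylase family, 1837 and 2709 (0.73, 0.44 to 1.01). MIA3, which helps load procollagen for export, had 205 and 304 (0.73, -0.18 to 1.63). SERPINH1, the collagen chaperone of the endoplasmic reticulum, had 5448 and 4532 counts and a ratio of -0.10 (-0.30 to 0.10).

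In the integrin adhesion complex 1 of 32 compared genes (3.1%) was lower and 0 were higher. This share lay near that of all genes, of which 2.98% were lower and 4.19% higher. The median of the list was -0.28. Of its 32 genes, 7 had an interval below 0 and 2 one above 0, where 8.2% and 10.8% of all genes did. Intervals narrow with level, and 19 of the 32 averaged at least 30 CPM. At that level 19.3% of all genes lay below 0 and 23.2% above. TLN2, a talin that binds beta tails, was the called gene with 230 and 79 counts (-1.37, -3.05 to -0.016), close to 0 at its upper end. ZYX, a LIM protein of focal adhesions, had 8150 and 3699 counts, or 145 and 69.4 FPKM, and its ratio of -0.97 (-1.18 to -0.77) lay just under 2-fold. TLN1, the main talin, had 3284 and 2176 (-0.43, -0.71 to -0.15), PLEC, which links ITGB4 to keratin, 33779 and 23927 (-0.33, -0.42 to -0.25), and TNS1, a tensin, 284 and 129 (-0.97, -2.24 to 0.13). TNS4 and LIMS2 lay the other way, with 0.74 (0.27 to 1.21) and 0.72 (0.30 to 1.13). ILK, the pseudokinase of this complex, was listed at 0 in both libraries, with the doubt given for KRT19.

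In the remaining lists 0 genes were called in either direction. Basement membrane and other integrin ligands had a median of 0.11 over 12 compared genes. FN1, fibronectin, the ligand of the ITGA5 receptor, had 599 and 988 counts (0.89, 0.39 to 1.39), FBLN1, a fibulin, 8990 and 14002 (0.81, 0.68 to 0.93), TGFBI 1408 and 936 (-0.42, -0.86 to 0.0012) and SPARC, a collagen-binding protein, 1659 and 1652 (0.16). Other receptors had 0.06 over 12, and the collagen uptake receptor MRC2 (0.81, 0.50 to 1.11) and the laminin receptor BCAM (0.75, 0.39 to 1.10) lay above 0, whereas the collagen receptor kinases DDR2 and DDR1 had -1.04 (-2.33 to 0.08) and -0.74 (-1.57 to 0.02). Membrane partners of integrins had 0.10 over 10. BSG, basigin, had 80758 and 115141 counts (0.68, 0.63 to 0.72), EMP2 2014 and 3166 (0.82, 0.55 to 1.09), CD82 424 and 530 (0.49, -0.17 to 1.13) and CD47 312 and 158 (-0.81, -1.95 to 0.19).

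**Figure D5:**
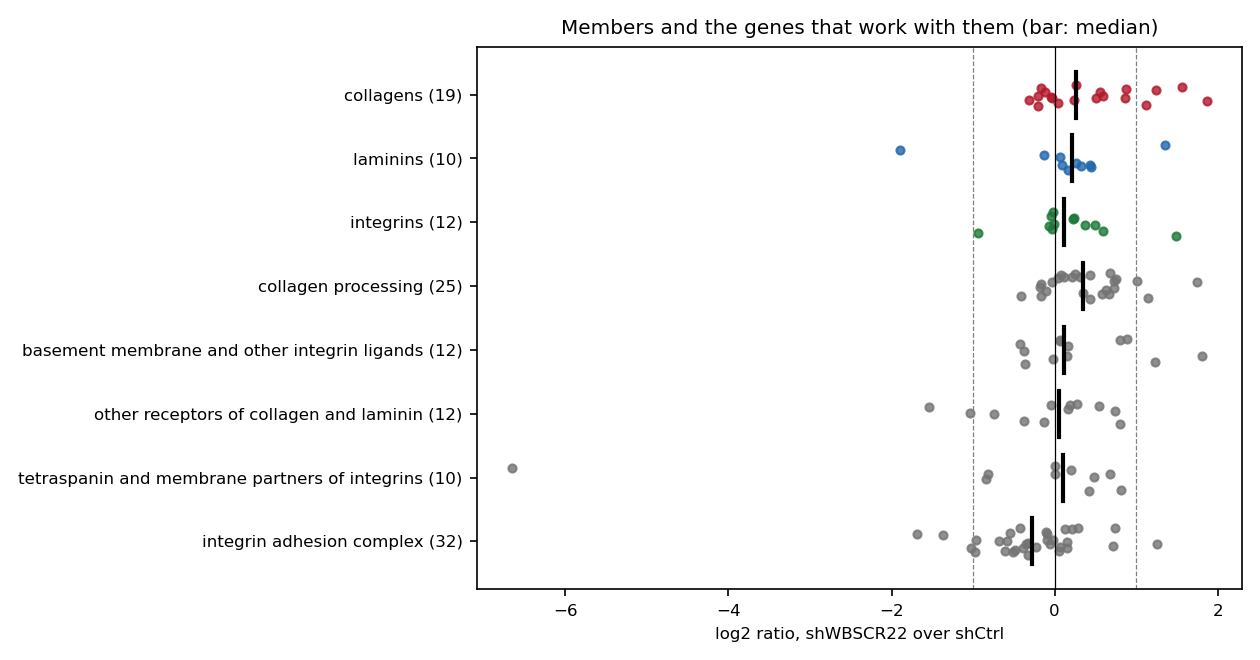
Log2 ratio of each compared gene for the 3 member classes (coloured) and the 5 lists of genes that work with them (grey), with the number of genes in brackets, black bars at the medians and dashed lines at 2-fold. The median of collagen processing lies at 0.35 and that of the integrin adhesion complex at -0.28; the point at -6.65 is TSPAN8, with 56 and 0 counts, whose place depends on the 0.5 counts added.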

How the data were processed

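RNA from 1 shCtrl and 1 shWBSCR22 library of PANC-1 cells was sequenced after TruSeq library preparation, per the labels' protocols. Tools listed, per the submitters' processing notes, were HISAT2, StringTie, DESeq, FastQC and bcl2fastq, with build GRCh38, without saying which did what. Annotation release, counting program and use of strand were not given in the sources used here. Deposited by the authors were raw counts per gene, which were whole numbers, and FPKM per gene. The deposited FPKM divided the count by the union of all exons of the gene in GENCODE 29, within 1% for 97.5% of 8268 genes with at least 100 counts in shCtrl. A gene with many long isoforms therefore gets a low FPKM.

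Counts were scaled by TMM (edgeR 4.0.16, R 4.3.3, factors 1.03 and 0.971), and log2 ratios (shWBSCR22 over shCtrl) had 0.5 counts added. Their 95% interval is exact, from the binomial share of shWBSCR22 reads (Clopper-Pearson), after dividing counts by the most frequent low count of each library, 8 and 15 reads, found after averaging over 3 neighbouring counts. No p-value was computed, since each group has 1 library. As reads carry no molecular identifiers they can be copies of 1 molecule, so intervals and the floor of 3 counts cover counting error only. The procedure was tested on simulated data whose reads came singly or in those same group sizes. That test cannot tell whether the real reads came in groups.

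Members, lists and tests were chosen with earlier results of these data known. Every member with a count is named except 1, which is not reported here but stays in the class counts, medians and sums; members of at least 30 CPM or called are given in full, and, from each list, up to 4 genes at a mean of at least 10 CPM whose ratios lie farthest from 0. TLN2, TLN1, PLEC, ILK, BMP1, SERPINH1 and TSPAN8 were named after their values were seen. GC content is that of the longest protein-coding transcript in GENCODE 29, and promoters are from RefSeq (GRCh38.p14), which held 44 of the 63 members. Overlapping genes and near-identical copies are uncertain. Other settings tried were scaling by total counts, by DESeq2 (1.42.0) or by the upper quartile, 2 added counts, FPKM with pseudocounts of 0.1 and 1, other filters and other intervals.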

Additional observations from a re-analysis of the deposited data

How the results depend on the processing

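COL1A1 and LAMB2 were called higher under all 13 settings, the main setting included, and COL6A2 and ITGA2B under all 12 that kept them. No compared member that was called changed sign. With the counting interval for single reads, or with size alone, 4 collagens were higher, COL11A2 and COL15A1 joining, and 1 laminin, LAMA3, was lower. With FPKM and a pseudocount of 0.1 by size alone, 3 collagens were higher, COL11A2 joining, and 1 laminin was lower. With a mean of at least 30 CPM 1 collagen and 0 integrins were higher, since COL6A2 and ITGA2B lie under that level. Over all genes, 544 higher and 387 lower became 1586 and 1546 with the counting interval, 1593 and 1548 by size alone, 1244 and 1508 with FPKM and a pseudocount of 0.1, and 114 and 75 at 30 CPM or more, where fewer genes were compared. Medians ran from 0.17 to 0.36 for collagens, 0.07 to 0.31 for laminins and -0.01 to 0.12 for integrins. A grouping of 15 reads in both libraries, chosen after seeing the data, left the same members called. Members under about 30 CPM have wider intervals, which held 0 for LAMA3, ITGA6 and COL12A1, so differences near 2-fold could be missed there. COL6A2 and ITGA2B, also under that level, were still called. No paired analysis was possible because each group has 1 library.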
